A study of Drosophila melanogaster with 18 samples.

Results

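The genes described here carry the response of Drosophila melanogaster to its developmental hormones, ecdysone and juvenile hormone. They are EcR, usp, Eip75B, Eip74EF, Eip93F, ftz-f1, Hr39, br, Kr-h1 and Hr4, chosen by name, and were read from a table of gene counts through the gene symbols that accompany it. Of the 10 genes, 8 had a count row among the 15406 genes of the table, and all 8 were among the 9470 genes that passed the expression filter. The other two, usp, the partner of the ecdysone receptor, and ftz-f1, were not analysed here.

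Poly(A) RNA was sequenced from heads of mir210KO flies and of wild-type (WT) flies, taken 1 h after eclosion, as 3 libraries of each genotype. In mir210KO flies the miR-210 gene, which encodes a miRNA, had been deleted with CRISPR/Cas9 by way of guide RNAs on either side of it. WT flies were of the white Dahomey strain (wDah). Both groups carry wDah as the strain label, and the general protocol states that modified flies were crossed back, where necessary, into a Dahomey strain that holds Wolbachia for at least 6 generations. The same protocol names once-mated females unless stated otherwise, and no sex is given for the head libraries themselves. The deletion was not limited to a tissue or stage. How many flies were pooled in a library is not given in the sources used here. The row of the mir-210 gene held 0 counts in all 6 libraries, mir210KO and WT alike, so the table does not check the deletion.

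Ecdysone is a steroid that triggers each molt and metamorphosis. It binds a heterodimer of the nuclear receptors EcR and Ultraspiracle, which switches on a first tier of genes for transcription factors, among them Eip74EF, Eip75B and br, and these in turn time later genes such as Hr4, ftz-f1 and Eip93F. Juvenile hormone is a sesquiterpenoid that acts through the receptors Met and gce, and Kr-h1 is its best known direct target. Both hormones change steeply around eclosion, so the comparison asks whether heads of the same nominal age differed between genotypes in the genes that respond to them.

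The mature miR-210-3p is annotated by RefSeq (Release 6 plus ISO1 MT, the Dm6 build) at chrX:18128270-18128292 on the plus strand. It is shown because it is the regulator removed in the mutant, with bases 2 to 8 of this annotated form in capitals. These bases depend on where the annotation starts the molecule. The authors give the functional seed as UGCGUGU, which lies further along it.
miR-210-3p: cUUGUGCGugugacagcggcuau
The complement of bases 2 to 8, CGCACAA, was present in the annotated 3′ UTRs of 360 of 12514 genes (2.88%). Among the 8 genes it was found in 2, EcR and br. The word ACGCACA, which pairs with bases 3 to 9, was present in 492 genes (3.93%) and in the same 2 of the 8. It is also the word that the authors mutated in a reporter with the Fasn1 3′ UTR. For both words a match anywhere in any annotated 3′ UTR of a gene was counted. No allowance was made for the length or number of these UTRs, so the shares of genes are not matched for it. Most matches of br to ACGCACA are not printed. The matches to CGCACAA in br, on the plus strand of the X chromosome, are given with 11 bases on either side and in capitals.
br, chrX:1655449-1655477: cggacggacctCGCACAAgttgcctttct
br, chrX:1659383-1659411: ctcgctgaccaCGCACAAgagcctgcagc
A match is a description of the sequence and not a site shown to be used. The mRNA levels of EcR and br, given next, did not pass the test in either direction.

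Values are given as CPM, counts scaled to a common library size with the TMM method of edgeR. The libraries held 17992976 to 20486283 counts in mir210KO heads and 18931638 to 21315973 counts in WT heads. All 5 photoreceptor markers were lower in mir210KO heads, with a summed level of 11775 to 12095 CPM in mir210KO heads against 20865 to 22939 CPM in WT heads. In whole heads, fewer cells of a type and less RNA per cell cannot be told apart. Neuron markers (0 of 5 called) and glia markers (0 of 3 tested called) were present in all libraries, as the label of the tissue requires. WT replicate 3 stood apart from the other WT libraries, as the chi-square of its counts divided by the degrees of freedom was 18.8 and 21.6 against them, compared with 3.86 between WT replicates 1 and 2 and 2.44 to 4.12 among mir210KO libraries. Its summed muscle markers were at 31014 CPM, against 20820 to 22808 CPM in mir210KO heads and 19797 and 21474 CPM in the other WT libraries, and its gut markers at 20.5 CPM, against 1.31 to 1.96 CPM in mir210KO heads and 3.35 and 4.26 CPM in the other WT libraries. Of 4 testis markers, dj and Mst84Da were at 0 in all mir210KO libraries and at 2.44 and 1.03 CPM in WT replicate 3, can was at 4.39 to 6.68 CPM in mir210KO heads and 0 to 0.143 CPM in WT heads, and bam was at 0 throughout. Ovary markers summed to under 1 CPM in every library. Fat body markers summed to 2187 to 2249 CPM in mir210KO heads and 2224 to 2363 CPM in WT heads, and hemocyte markers to 221 to 243 CPM in mir210KO heads and 237 to 252 CPM in WT heads. In the test described next, 0 of 9 muscle, 1 of 5 fat body (lower), 2 of 3 hemocyte (1 higher, 1 lower), 1 of 2 gut (lower) and 1 of 1 testis markers tested (higher) were called.

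The genotypes were compared by log2 fold changes of mir210KO over WT, with p-values from edgeR's quasi-likelihood test after Benjamini-Hochberg adjustment over all 9470 genes and a threshold of 0.05. One of the 8 genes passed. Kr-h1 fell by 33.5% in mir210KO heads, whereas the receptor gene EcR, the early ecdysone genes Eip75B, Eip74EF and br, and Eip93F, Hr39 and Hr4 did not pass. Over all genes tested, 956 (10.1%) passed, 376 of them higher (3.97%) and 580 lower (6.12%) in mir210KO heads, so that 1 of 8 (12.5%) was close to the share of genes in general. When library totals alone were used for scaling, the split over all genes was 793 higher and 407 lower, that is 66.1% of calls were higher, against 39.3% with TMM. Without WT replicate 3, 1278 genes passed. CPM did not overlap between the genotypes for 4 of the 8 genes, Kr-h1, Hr4, Eip75B and Eip74EF, all lower in mir210KO heads, against 28.3% of all genes tested in either direction. The median log2 fold change of the 8 was −0.05, and that of all genes tested was 0.00117.

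**Figure D1:**
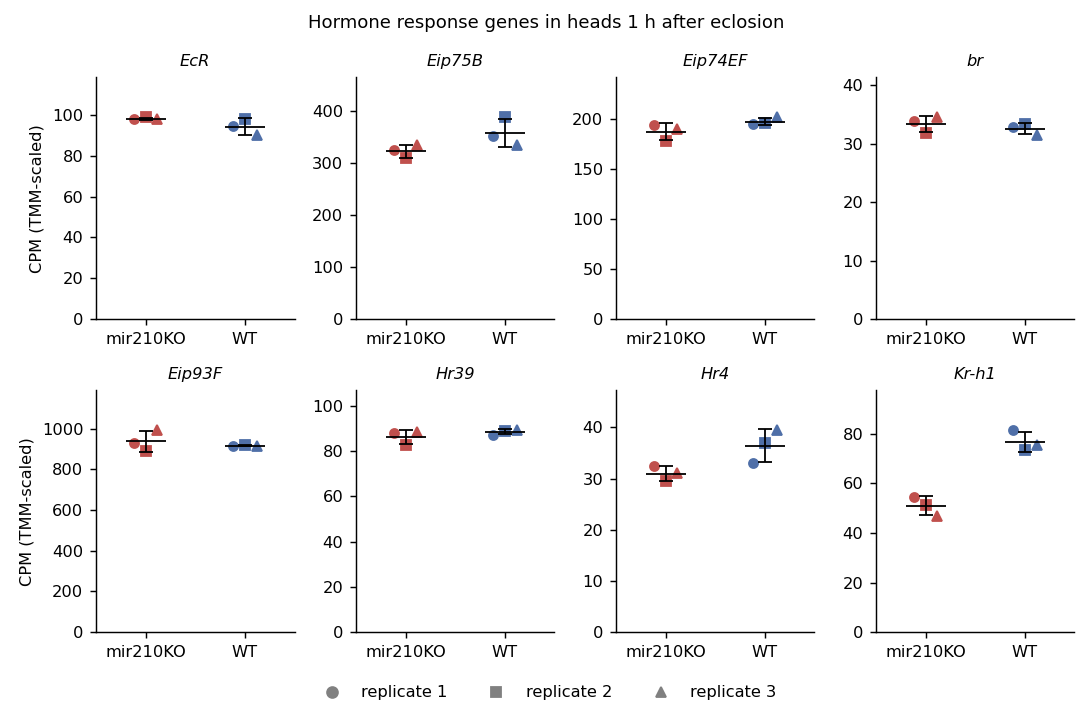
CPM of the 8 genes in each library (vertical axes, from 0, 1 panel per gene), with mir210KO at the left and WT at the right of each panel, markers by replicate, and the mean with its SD (n = 3) in black. Kr-h1 is the panel in which the genotypes lie farthest apart, with 46.9 to 54.6 CPM in mir210KO heads and 73.4 to 81.3 CPM in WT heads.

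Kr-h1 encodes a zinc finger transcription factor that is induced by juvenile hormone and holds back metamorphosis in larvae. It had 54.6, 51.4 and 46.9 CPM in the 3 mir210KO libraries, and 81.3, 73.4 and 75.5 CPM in the 3 WT libraries. Every mir210KO library was below every WT library. The means were 51.0 ± 3.89 CPM in mir210KO heads and 76.7 ± 4.08 CPM in WT heads (SD, n = 3 each), a log2 fold change of −0.59 ± 0.06 (SE, adjusted p = 1.08e-04, edgeR). The 95% interval of the log2 fold change ran from −0.72 to −0.45, and by its p-value Kr-h1 stood at rank 136 of all genes tested. The counts behind these values were 1144, 995 and 856 in mir210KO heads and 1527, 1535 and 1392 in WT heads. At the lowest of them the counting error alone would be 3.42%, under the coefficients of variation between replicates of 7.64% in mir210KO heads and 5.32% in WT heads. Without WT replicate 3 the log2 fold change was −0.60 (adjusted p = 1.70e-06, edgeR). The summed photoreceptor markers were lower in mir210KO heads as well, at 11775 to 12095 CPM against 20865 to 22939 CPM in WT heads, and their part in the lower level of Kr-h1 was not tested.

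Kr-h1 (FBgn0266450) lies at 2L 6082603 to 6096498 on the plus strand of the Dm6 build, with 2 annotated transcripts that begin at 2 start sites, 6082603 and 6091412. Of its 5306 exonic bases, 4168 are shared on the same strand with CG45075, a gene model that runs through the same exons. Reads from these bases cannot be assigned to either gene, and CG45075 itself was not analysed here. Gene counts also do not separate the transcripts from either start site. Among the 22 other tested genes within 50 kb of Kr-h1, 0 passed the test with edgeR, against 10.1% of all genes tested. In windows of the same size, 4 of 11 passed around Eip75B, 3 of 13 around EcR, 2 of 16 around Hr4 and 1 of 15 around Eip74EF. Around Eip93F, Hr39 and br, 0 of 14, 0 of 8 and 0 of 7 passed. Whether neighbours bear on the level of a gene was not tested.

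EcR (FBgn0000546, 2R) encodes the ecdysone receptor. Its levels were 97.8, 98.7 and 98.0 CPM in mir210KO heads and 94.6, 98.1 and 90.1 CPM in WT heads. The genotypes overlapped, with a log2 fold change of 0.06 and a 95% interval of −0.03 to 0.15 (adjusted p = 0.467, edgeR). EcR had the smallest spread of the 8 genes in mir210KO heads, with a coefficient of variation of 0.471%, below the counting error of 2.45% at its lowest count.

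Eip75B (FBgn0000568, 3L) encodes the heme-binding nuclear receptor E75, a repressor among the early ecdysone targets. It had 325, 310 and 335 CPM in mir210KO heads, and 353, 388 and 336 CPM in WT heads. The highest mir210KO library, at 334.8 CPM, lay just below the lowest WT library, at 335.6 CPM. The log2 fold change was −0.15, with a 95% interval of −0.27 to −0.03, and did not pass the test (adjusted p = 0.118, edgeR). Without WT replicate 3 it passed, with a log2 fold change of −0.20 (adjusted p = 0.00529, edgeR).

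Eip74EF (FBgn0000567, 3L) encodes the ETS factor E74. Its levels were 195, 178 and 190 CPM in mir210KO heads and 195, 196 and 202 CPM in WT heads. The highest mir210KO library, at 194.6 CPM, was below the lowest WT library, at 194.9 CPM, by less than 1 CPM. The log2 fold change was −0.07, with a 95% interval of −0.17 to 0.02 (adjusted p = 0.335, edgeR).

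br (broad), the zinc finger gene that specifies the pupal stage, had 33.9, 31.8 and 34.5 CPM in mir210KO heads and 33.0, 33.4 and 31.5 CPM in WT heads. The genotypes overlapped, and the log2 fold change was 0.03, with a 95% interval of −0.09 to 0.15 (adjusted p = 0.774, edgeR). The gene has 16 annotated transcripts from 9 start sites on the X chromosome and is entered in the table under an older identifier, FBgn0000210. Of its exonic bases, 189 are overlapped by Mur2B on the other strand, and the strand setting of the counting is not given in the sources used here.

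Hr4 (FBgn0264562, X) encodes a nuclear receptor that represses early ecdysone genes in prepupae. It had 32.4, 29.5 and 31.1 CPM in mir210KO heads, and 33.0, 36.9 and 39.4 CPM in WT heads. All mir210KO libraries were below all WT libraries, the nearest being 32.4 CPM in mir210KO replicate 1 and 33.0 CPM in WT replicate 1. The log2 fold change was −0.23, with a 95% interval of −0.39 to −0.08, and missed the threshold (adjusted p = 0.0606, edgeR). Without WT replicate 1 it passed, with −0.30 (adjusted p = 0.0159, edgeR). Hr4 also had the largest coefficient of variation of the 8 genes in WT heads, 8.83%.

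Eip93F (FBgn0264490, 3R) encodes the E93 factor, which drives the program of the adult stage late in metamorphosis and in the beetle Tribolium is repressed by Kr-h1. Its levels were 930, 890 and 991 CPM in mir210KO heads and 914, 918 and 914 CPM in WT heads. The WT libraries lay within the range of the mir210KO libraries, and the log2 fold change was 0.03, with a 95% interval of −0.07 to 0.13 (adjusted p = 0.721, edgeR). Eip93F was the most abundant of the 8, with a CPM above that of 98.5% of the genes tested. CPM grows with gene length, and per kb of annotated exons its level was above that of 89.2% of them.

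Hr39 (FBgn0261239, 2L) encodes an orphan nuclear receptor related to Ftz-f1 that is induced at the onset of metamorphosis. It had 87.8, 82.7 and 88.5 CPM in mir210KO heads and 87.2, 89.0 and 89.1 CPM in WT heads. The ranges overlapped, with a log2 fold change of −0.03 and a 95% interval of −0.13 to 0.06 (adjusted p = 0.681, edgeR).

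**Figure D2:**
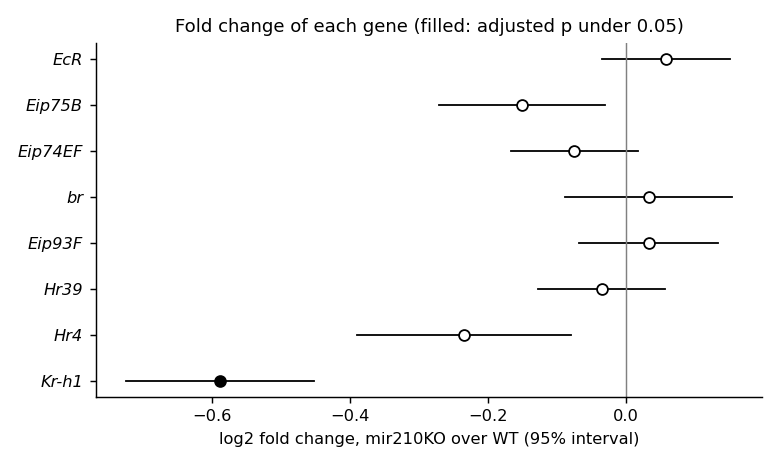
Log2 fold change of each of the 8 genes, mir210KO over WT (horizontal axis), with its 95% interval as a line and filled points for an adjusted p under 0.05 (edgeR, n = 3 each). The interval of Kr-h1, −0.72 to −0.45, does not overlap that of any of the other 7 genes.

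To compare levels between genes, CPM was divided by the length of all annotated exons of a gene in kb, which is longer than any single transcript. On this scale Eip93F was highest, at 70.1 to 78.1 CPM per kb over the 6 libraries. Eip75B followed with 23.1 to 28.9, Eip74EF with 19.1 to 21.6 and Hr39 with 16.6 to 17.9 CPM per kb. These 4 ranges did not overlap each other.

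Kr-h1 and EcR came next in level per length, and their ranges over the 6 libraries overlapped, at 8.84 to 15.3 and 9.07 to 9.94 CPM per kb. In mir210KO heads Kr-h1 lay at 8.84 to 10.3 CPM per kb, on both sides of EcR at 9.85 to 9.94 CPM per kb. In WT heads Kr-h1 lay at 13.8 to 15.3 CPM per kb, above EcR at 9.07 to 9.87 CPM per kb in all 3 libraries. The place of Kr-h1 in this order is uncertain, as 4168 of its 5306 exonic bases are shared with CG45075. How reads from the shared bases were counted is not given in the sources used here. The lowest levels per length were those of Hr4, at 2.12 to 2.83 CPM per kb, and br, at 1.56 to 1.71 CPM per kb, which did not overlap.

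The window from 250 bases before to 50 bases after each annotated start site of the 8 genes was searched on both strands for words that the hormone receptors are known to bind. AGGTCA, the half-site of many nuclear receptors, was present in 0 of their 30 windows and in 5.71% of 20703 windows over all genes. CACGTG, the E-box bound by Met and gce with their partners, was likewise in 0 of 30 windows and in 3.98% of all. CACGCG, a related word, was in 4 of 30 windows (13.3%) and in 7.21% of all, in windows of Eip75B, Eip74EF and br. No window of Kr-h1 or EcR held any of these words, which says nothing of sites outside the windows.

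The values of the 8 genes were recomputed under 13 alternatives, which changed the test, the scaling, the filter, the use of replicate numbers or the libraries. Kr-h1 passed in 13 of 13, with log2 fold changes of −0.64 to −0.53 and adjusted p of at most 0.00184. Eip75B and Hr4 passed in 1 of 13 each, as given above, and their log2 fold changes stayed negative, at −0.20 to −0.09 for Eip75B and −0.30 to −0.17 for Hr4. The other 5 genes passed in 0 of 13. With edgeR, 3 of the 8 genes had an unadjusted p under 0.05, Kr-h1, Hr4 and Eip75B, all lower. Over all 9470 genes tested, 973 were higher and 1227 lower at that unadjusted threshold.

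**Figure D3:**
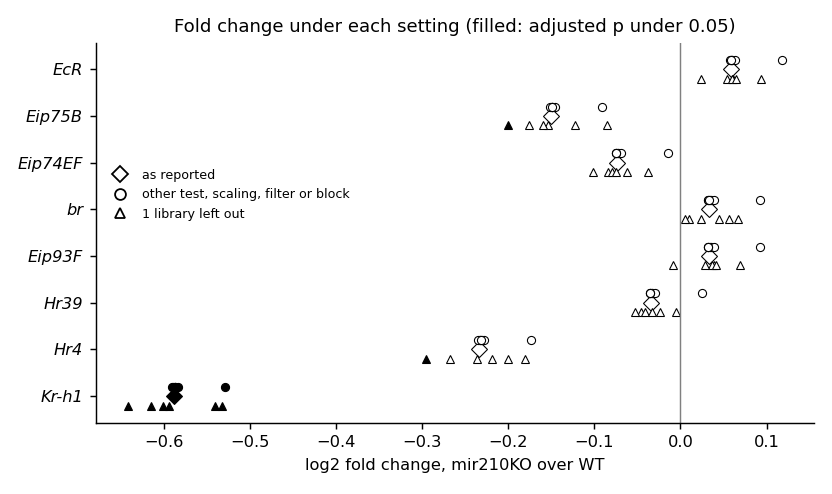
Log2 fold change of each of the 8 genes, mir210KO over WT (horizontal axis), as reported (diamonds), with another test, scaling, filter or replicate block (circles) and with 1 library left out (triangles), filled where the adjusted p was under 0.05. Kr-h1 is filled throughout between −0.64 and −0.53, Hr4 and Eip75B once each, and the other 5 genes never.

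Other genes of juvenile hormone signalling were described from a list of 17, all of them tested. Of these, 2 were lower in mir210KO heads and 0 were higher (11.8%, close to the 10.1% of all genes), with a median log2 fold change of −0.04. At an unadjusted p under 0.05 (edgeR), 4 were lower and 2 higher, against 1227 lower and 973 higher of all 9470 genes tested. The 2 that passed after adjustment were Chd64 and JhI-1. Over the 13 alternatives, 2 to 3 were lower and 0 to 2 higher, with 2 higher under library totals and 1 higher without WT replicate 2 and without WT replicate 3. The part of the photoreceptor markers, lower in all 3 mir210KO libraries, in this count and in the counts of the lists that follow was not tested.

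Chd64 encodes a calponin-like protein that was found bound at a juvenile hormone response element. It had 287, 302 and 294 CPM in mir210KO heads, and 408, 435 and 419 CPM in WT heads. All mir210KO libraries were below all WT libraries, with a log2 fold change of −0.52 ± 0.04 (SE, adjusted p = 1.06e-05, edgeR). JhI-1 was named for its induction by juvenile hormone, but its current symbol is RNaseZ, which does not refer to the hormone. It had 7.64, 7.03 and 7.45 CPM in mir210KO heads, against 13.2, 14.6 and 13.7 CPM in WT heads. The genotypes did not overlap, with a log2 fold change of −0.91 ± 0.09 (SE, adjusted p = 5.74e-05, edgeR). JhI-26, which has a similar name and was named after its values were seen, went the other way and did not pass. It had 34.8, 33.3 and 31.1 CPM in mir210KO heads and 23.9, 31.3 and 28.0 CPM in WT heads. Its log2 fold change was 0.25 (adjusted p = 0.109, edgeR).

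The receptors and the enzymes of the hormone, named here after their values were seen, did not pass. The receptor gene Met averaged 48.2 ± 3.00 CPM in mir210KO heads and 48.0 ± 1.85 CPM in WT heads (SD, n = 3 each). The second receptor gene, gce, averaged 103 ± 5.45 CPM in mir210KO heads and 108 ± 6.78 CPM in WT heads. The log2 fold change of jhamt, which encodes the methyltransferase of the last steps of synthesis, was −0.17 (adjusted p = 0.380, edgeR). That of Jheh3, an epoxide hydrolase gene of hormone breakdown, was −0.46 and stood just outside the threshold (adjusted p = 0.0519, edgeR). It passed in 5 of 13 alternatives, limma-voom, no count filter, the replicate block and without mir210KO replicate 2 or WT replicate 3. Jhedup, a duplicate of the juvenile hormone esterase gene, varied most between libraries of 1 genotype, with 2.77, 1.29 and 8.76 CPM in mir210KO heads and 28.1, 1.20 and 10.7 CPM in WT heads.

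A further 26 genes were listed for the ecdysone response. The list also held genes of ecdysone signalling rather than response, such as tai, Smr, Alien, Oatp74D and DopEcR. Of the 26 genes, 23 were tested, 3 of which rose and 3 fell in mir210KO heads (26.1%, against 10.1% of all genes). Their median log2 fold change was 0.00524. Over the 13 alternatives, 2 to 3 rose and 1 to 4 fell, with 1 that fell under library totals and without mir210KO replicate 2. Eip78C, which encodes the nuclear receptor E78, had 77.7, 72.9 and 68.3 CPM in mir210KO heads, and 53.1, 50.7 and 50.2 CPM in WT heads. Hr38, a nuclear receptor that can pair with Ultraspiracle and that is also induced by neuronal activity, had 51.0, 47.3 and 54.4 CPM in mir210KO heads and 25.7, 28.4 and 34.8 CPM in WT heads. Neither gene overlapped between genotypes. The log2 fold change was 0.51 ± 0.05 for Eip78C (SE, adjusted p = 1.24e-04, edgeR) and 0.78 ± 0.10 for Hr38 (SE, adjusted p = 3.30e-04, edgeR), and both passed under all 13 alternatives.

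The third gene that rose, Eip63E, which encodes a cyclin-dependent kinase, had a log2 fold change of 0.15 (adjusted p = 0.0172, edgeR) and passed in 9 of 13 alternatives. The genes that fell were Blimp-1, a repressor that times prepupal development (−0.25, adjusted p = 0.00972), vri, a bZIP factor of the circadian clock (−0.21, adjusted p = 0.0153), and chinmo, a temporal factor of neurons (−0.26, adjusted p = 0.0294, edgeR for all). Blimp-1 passed in 13, vri in 10 and chinmo in 8 of 13 alternatives. The roles of Hr38 in activity and of vri in the clock are not confined to ecdysone, so that their changes were counted under a list whose name covers only part of what they do. Hr3, a nuclear receptor of the same cascade and named here after its values were seen, averaged 87.5 ± 8.34 CPM in mir210KO heads and 87.8 ± 4.96 CPM in WT heads (SD, n = 3 each).

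Of 19 genes of ecdysteroid synthesis and breakdown, 9 were tested and 0 passed with edgeR, against 10.1% of all genes. DESeq2, limma-voom and the other settings also gave 0, apart from 1 lower gene without WT replicate 3. At an unadjusted p under 0.05 (edgeR), 1 gene was lower and 0 higher, against 1227 lower and 973 higher of all 9470. Some genes of the list, named after their values were seen, were near the floor. Mean levels in mir210KO and WT heads were 0.861 and 0.818 CPM for sro and 0.666 and 0.965 CPM for ptth. The untested spo, dib, ouib and Eo had 0 counts. Of 12 other nuclear receptor genes, 10 were tested and 0 passed (edgeR), against the same 10.1%. At an unadjusted p under 0.05, 2 were higher and 0 lower. Without mir210KO replicate 3, 1 was called higher.

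**Figure D4:**
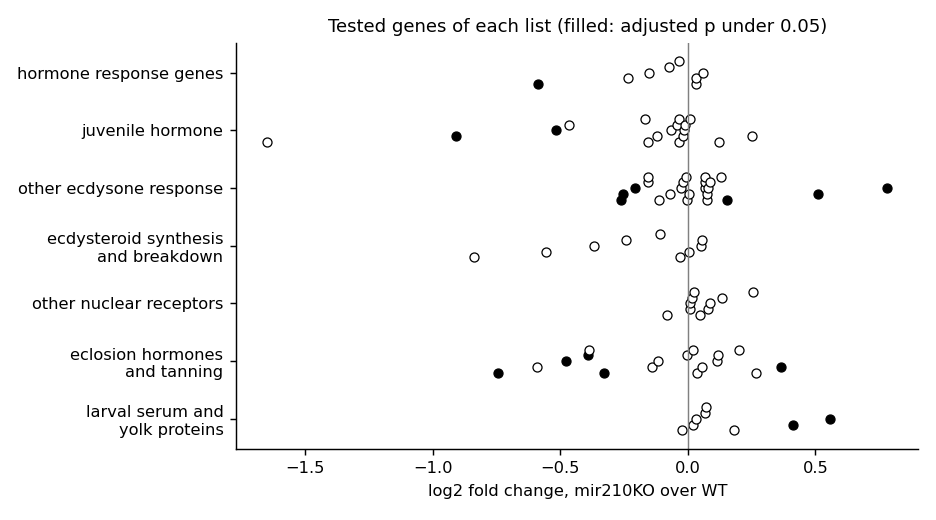
Log2 fold change of the tested genes of each list, mir210KO over WT (horizontal axis), 1 point per gene, filled where the adjusted p was under 0.05 (edgeR, n = 3 each), with points spread vertically only to separate them. Filled points lie on both sides of 0 in the list for the ecdysone response (3 and 3). They lie only below 0 among juvenile hormone genes (2) and the 8 genes described first (Kr-h1).

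Genes of eclosion and of the tanning of the new cuticle, a process that runs in the hours around eclosion, were counted from a list of 17, all tested. Of these 1 rose and 4 fell (29.4%, against 10.1% of all genes), with a median log2 fold change of −0.00497. Over the 13 alternatives, 2 to 5 were lower and 1 to 2 higher, with the fewest lower without mir210KO replicate 2. CCAP-R, the receptor of the cardioactive peptide that takes part in eclosion behaviour, had 7.59, 8.84 and 8.05 CPM in mir210KO heads and 14.003, 14.014 and 12.967 CPM in WT heads, without overlap (log2 fold change −0.74 ± 0.09, SE, adjusted p = 3.08e-04, edgeR). The tanning enzyme genes t (tan) and e (ebony), whose products also handle histamine in the visual system, changed by −0.33 (adjusted p = 2.99e-04) and −0.39 (adjusted p = 0.00788, edgeR for both). The level of e rose from WT replicate 1 to 3, at 2154, 2606 and 2783 CPM, against 1950, 1889 and 1916 CPM in mir210KO heads. That of t did not rise, at 382, 392 and 362 CPM in WT heads and 302, 300 and 302 CPM in mir210KO heads. The fourth, y (yellow), a pigmentation gene outside the rule for named genes, had −0.48 (adjusted p = 0.0453, edgeR) and passed in 4 of 13 alternatives, not with DESeq2, limma-voom, library totals or the replicate block. It had 5.01, 5.53 and 5.04 CPM in mir210KO heads and 6.44, 6.84 and 8.46 CPM in WT heads. The gene that rose, amd, which acts in catecholamine metabolism of the cuticle, had a log2 fold change of 0.37 (adjusted p = 0.00413, edgeR). The neuropeptide genes Eh, ETH, CCAP, Burs and Pburs did not pass. ETH, Burs and Pburs averaged 0.414, 1.14 and 0.659 CPM in mir210KO heads and 0.630, 0.988 and 0.549 CPM in WT heads. At these low levels the 95% intervals of their log2 fold changes were wide, at −1.56 to 0.37, −0.55 to 0.95 and −0.47 to 1.01. The gene ple, named after its values were seen, did not pass either, with a log2 fold change of −0.39 (adjusted p = 0.0871, edgeR). It had 2418, 2220 and 2307 CPM in mir210KO heads and 2344, 2988 and 3746 CPM in WT heads.

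Larval serum and yolk proteins were counted from a list of 9, of which 8 were tested, 2 rose and 0 fell (25%, against 10.1% of all genes), with a median log2 fold change of 0.07. With library totals and without WT replicate 3, 3 rose. Yp3, a yolk protein gene, had 430, 399 and 382 CPM in mir210KO heads and 295, 231 and 299 CPM in WT heads, without overlap (log2 fold change 0.56 ± 0.09, SE, adjusted p = 0.00166, edgeR). Lsp1gamma, a larval storage protein gene, had 60.6, 69.7 and 66.4 CPM in mir210KO heads, against 52.7, 43.3 and 51.8 CPM in WT heads (log2 fold change 0.41 ± 0.08, SE, adjusted p = 0.00555, edgeR). Their relatives Yp1 and Yp2, at 0.07 and 0.02, and Lsp1alpha and Lsp1beta, at −0.02 and 0.03, had log2 fold changes nearer 0 that did not pass, and they were named after their values were seen.

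**Figure D5:**
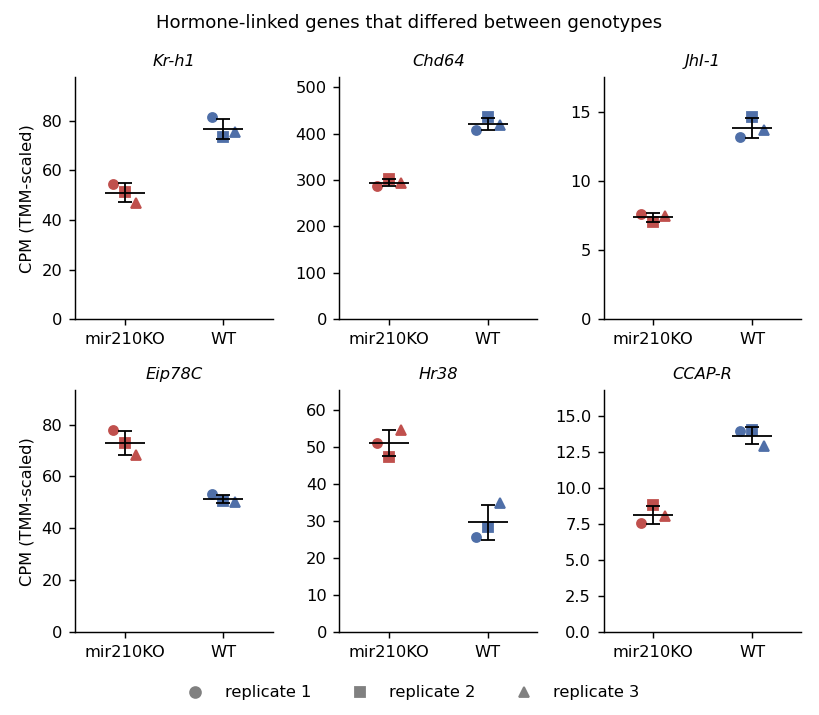
CPM in each library (vertical axes, from 0) of 6 hormone-linked genes that passed the test, with mir210KO at the left and WT at the right of each panel, markers by replicate, and the mean with its SD (n = 3) in black. Kr-h1, Chd64, JhI-1 and CCAP-R are lower and Eip78C and Hr38 higher in all 3 mir210KO libraries than in any WT library.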

How the data were processed

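The authors' alignments to Dm6 came from TopHat2 after trimming with Trim Galore 0.3.7, and SAMtools left uniquely placed reads only. The deposited values are raw counts per gene, made by the authors. SeqMonk is named for viewing and analysis, but which program counted reads, its annotation and its strand setting were not given in the sources used here. A deposited table of the authors' own DESeq2 comparison (mean level, log2 fold change, Wald statistic, p-values) served only for its symbols. Small RNA libraries of other tissues were not used.

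The test was run with edgeR 4.0.16 in R 4.3.3 (filterByExpr, TMM, quasi-likelihood test, Benjamini-Hochberg adjustment), with genotype as the sole term. Alternatives used limma 3.58.1 and DESeq2 1.42.0, other scalings and filters, a replicate block, and each library left out in turn. The procedure was tested on simulated data. Figures were drawn with pandas 2.3.3 and matplotlib 3.10.9 in Python 3.11.15. Replicates varied by 5.54% (the square root of a common dispersion of 0.00307). Chi-squares between replicates used genes with at least 10 counts in a pair. Samples were grouped by their labels. The sources do not say whether libraries of 1 genotype came from separate flies, so the p-values reflect the spread among these 6 libraries alone, and that spread may be technical.

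The genes and lists were chosen with earlier results of these data known. Named were all 10 genes and, of each other list, the called genes with the smallest adjusted p, up to 3 in each direction, while others were chosen after their values were seen, y and Jheh3 with all alternatives. Symbols were matched through the deposited table, current identifiers and RefSeq synonyms.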

Additional observations from a re-analysis of the deposited data

How the results depend on the processing

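Kr-h1 was the sole one of the 8 genes to pass with DESeq2, limma-voom, other size factors, library totals, both other filters and the replicate block. The number passing was 1 to 2 when 1 library was left out, with Hr4 added without WT replicate 1 and Eip75B without WT replicate 3. Over all genes, 594 to 1278 passed when 1 library was left out, of which 219 to 523 were higher and 375 to 755 lower, against 956, 376 and 580 with all libraries. The counts were lowest without mir210KO replicate 1 and without mir210KO replicate 2 (620 in all) and highest without WT replicate 3. The causes were not tested. With library totals alone, 793 genes were higher, and the log2 fold change of Hr39 turned to 0.0252 (adjusted p = 0.740, edgeR). That of Eip93F ran from −0.00865 to 0.0692 when 1 library was left out.

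Among the other called genes named, 22 values lost their call, 9 of them of y, in all settings but other size factors, both other filters and without WT replicate 1. Those of Eip63E, vri, chinmo and e were without mir210KO replicate 1 (Eip63E, chinmo), 2 (all 4 genes) or 3 (Eip63E, vri), without WT replicate 1 (chinmo) or 2 (Eip63E, chinmo), and with library totals (vri, chinmo). Replicate numbers gave no sign of pairing. The correlations of same-numbered deviations were −0.0466, 0.0438 and 0.0824, within the range of −0.115 to 0.0847 of differently numbered ones. With 3 libraries of each genotype, this does not exclude pairing. With the replicate block 855 genes passed, y lost and Jheh3 gained its call, and Kr-h1 had a log2 fold change of −0.59 (adjusted p = 2.58e-05, edgeR). Counting error alone amounts, at the lowest counts of the 8 genes, 567 for Hr4 and 580 for br, to 4.20% and 4.15%.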
